A study of Mus musculus with 6 samples.

Results

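The cytochrome P450 (Cyp), glutathione S-transferase (Gst and Mgst) and UDP-glucuronosyltransferase (Ugt) genes of the mouse pancreas are described here in acute pancreatitis. Members were chosen by gene symbol and by a total of at least 30 counts over the 6 libraries, which left 37 of the 138 Cyp, Gst, Mgst and Ugt rows in a table of 36333 rows. They were 21 of 93 Cyp rows, 15 of 24 Gst and Mgst rows and 1 of 21 Ugt rows. The other rows held 1 to 29 counts (35 rows) or none (66 rows).

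The study asked which protein-coding and long noncoding RNAs change early in acute pancreatitis. It compared pancreas from wild-type mice given saline (3 libraries) with pancreas from wild-type mice given cerulein (3 libraries), an analogue of the hormone cholecystokinin that overstimulates the enzyme-secreting acinar cells. Cerulein was injected into the peritoneum 10 times (200 µg/kg/h, 200 µl each), and the tissue was taken when the injections ended. The labels give no strain, sex or age, and nothing states that the 3 libraries of a group came from separate animals, so p-values measure the spread between these libraries, which may be technical.

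Detoxification is commonly described in phases. Cytochromes P450 are haem enzymes that oxidise drugs, fatty acids, sterols and retinoids with electrons passed on by P450 reductase, cytochrome b5 or, in mitochondria, ferredoxin. Glutathione S-transferases join glutathione to reactive molecules, UDP-glucuronosyltransferases join glucuronic acid to lipophilic ones, and transporters then carry the conjugates out of the cell. Liver is the main site of these enzymes, and the pancreas holds a smaller set in its acinar, islet and other cells.

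Values are CPM, read counts scaled to a common library total with TMM, a factor that aligns most genes between libraries, and 1 CPM corresponded to 3.89 to 8.55 counts. A gene was called at an edgeR adjusted p under 0.05 in a fit over all 12441 genes that passed the count filter. The groups differed widely at that threshold. Of all genes tested, 27.1% were called lower in cerulein and 28.7% higher, and the 3 libraries of each group did not overlap, with cerulein lower, for 30.6% and, with cerulein higher, for 32.4%. The members' counts below stand beside these shares, and the choice of these families was made with results of the same contrast known, so the counts are a description. Saline replicate 1 stood apart from the other saline libraries (chi-square per degree of freedom 45.1 and 37.7, against 7.98 between the other pair), and without it 23 of 35 members tested were called lower and 2 higher.

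Transcripts of the detoxification enzymes were lower after cerulein in most of the families that the pancreas expressed. Of 34 members tested, 22 (64.7%) fell, 0 rose and 12 missed the threshold, with a median log2 fold change of -1.35. Members that reached 30 counts in one group alone, such as Cyp4f15, Cyp2c70 and Gstm4, could pass through that group, and among the 29 tested that reached it in both groups 19 fell and the median was -1.27. At an unadjusted p under 0.05 by edgeR, 24 were lower and 2 higher. DESeq2 called 0 members higher and limma-voom 1. The summed level of all 37 members was 678, 681 and 775 CPM in saline replicates 1, 2 and 3 and 245, 274 and 276 CPM in cerulein replicates 1, 2 and 3. The Cyp sum went from 246 to 294 CPM in saline down to 110 to 131 CPM in cerulein, and the Gst and Mgst sum from 336 to 449 CPM down to 110 to 145 CPM. No cerulein library reached the level of any saline library in these sums. In whole tissue, fewer cells of a type and less RNA per cell cannot be told apart.

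**Figure D1:**
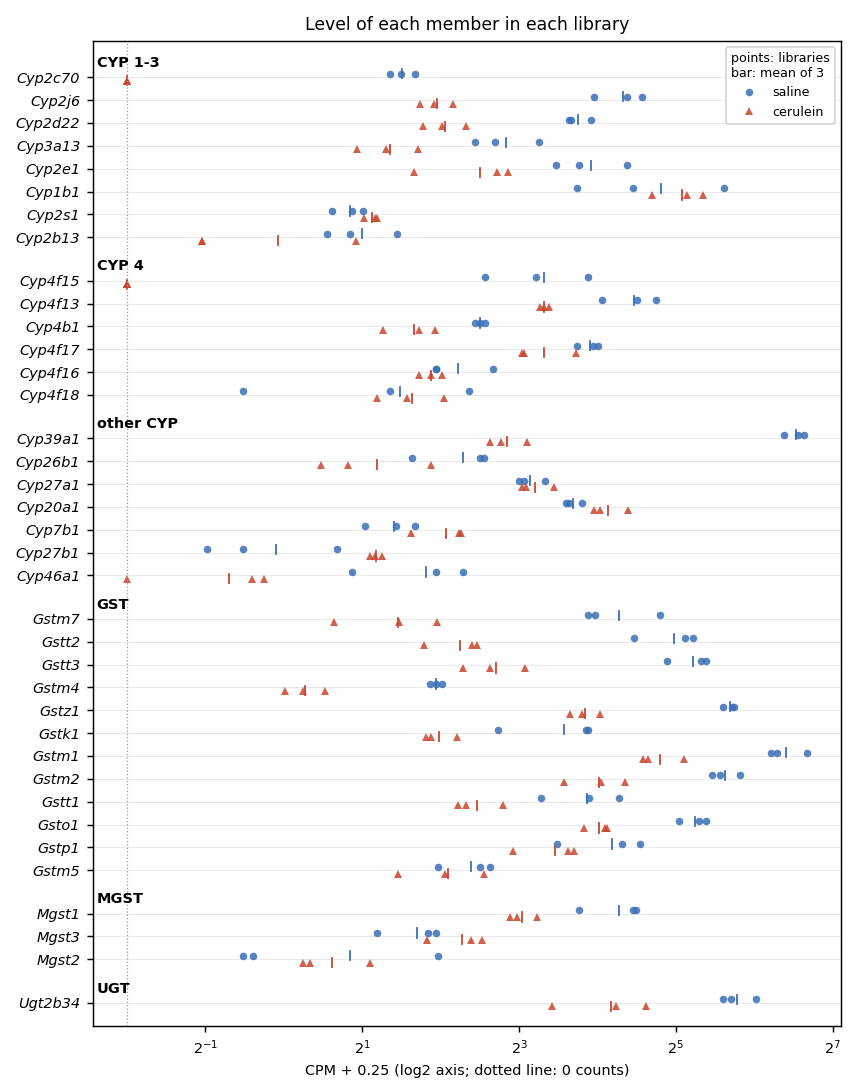
Level of each of the 37 members in each library, as CPM + 0.25 on a log2 axis, with saline libraries as blue circles, cerulein libraries as red triangles and the mean of 3 as a bar. For 22 of the 34 tested members, and for Cyp46a1, all cerulein libraries lie below all saline libraries, and Cyp2c70 and Cyp4f15 sit at 0 counts (dotted line) in all 3 cerulein libraries.

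Non-overlap followed the same split. All cerulein libraries lay below all saline libraries for 22 of the 34 tested members and above them for 3 (Cyp2s1, Cyp20a1 and Cyp27b1), and the groups overlapped for 9. By length-adjusted level, the mean per kilobase of exon was led in saline by Gstm1 (57.3 CPM per kb, libraries 50.01 to 68.95), Cyp39a1 (30.1, libraries 27.1 to 32.5), Gstm2 (29.2, libraries 26.0 to 33.5), Gsto1 (18.6, libraries 16.1 to 20.5) and Ugt2b34 (12.7, libraries 11.2 to 14.9). The ranges of Cyp39a1 and Gstm2 overlapped, whereas those of Gstm1 and Gsto1 touched no neighbour in that order. In cerulein the order was Gstm1 (18.7 CPM per kb), Gstm2 (9.54), Gsto1 (7.90), Cyp20a1 (7.60) and Gstp1 (6.94). Cyp39a1 went from rank 2 to rank 17 of the 37, at 2.27 CPM per kb, and Cyp1b1 from rank 18 to rank 6. The length was that of all annotated exons of a gene merged, so these ranks depend on the annotation. Gstz1 (51.35 CPM in saline, 5.09 kb) ranked 8, below Gstm2 (49.0 CPM, 1.68 kb).

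Among P450 families 1 to 3, the enzymes best known for drug and steroid oxidation, 8 of 58 rows were members. Of 7 tested, 5 fell and 2 did not pass the threshold (median log2 fold change -1.56). Subfamilies that liver uses heavily gave few reads, with 6 of 7 Cyp3a rows, 10 of 15 Cyp2c rows and 6 of 8 Cyp2d rows at 0 in all libraries. Reads of near-identical genes may be lost in counting, so a 0 in these rows is not read as absence.

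Cyp2j6, a relative of the enzymes that turn arachidonic acid into epoxides (chr4:96516138-96564305), stood at 15.3, 20.5 and 23.4 CPM in saline and 3.08, 4.21 and 3.54 CPM in cerulein. The cerulein libraries formed a narrow group far below the lowest saline library. The mean went from 19.7 ± 4.10 to 3.61 ± 0.571 CPM (mean ± SD, n = 3 per group), with a log2 change of -2.43 ± 0.25 (SE, edgeR adjusted p = 3.09e-06). Cyp2d22, a mouse relative of the human drug oxidase family CYP2D (chr15:82370527-82380260), was at 12.5, 12.2 and 14.9 CPM in saline and 4.73, 3.16 and 3.79 CPM in cerulein. Each saline library held more than any cerulein library, and the log2 change was -1.75 ± 0.25 (SE, edgeR adjusted p = 6.06e-05).

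Cyp2e1, the ethanol- and paracetamol-oxidising P450 (chr7:140763819-140774990), had 20.6, 10.8 and 13.4 CPM in saline and 6.98, 2.93 and 6.31 CPM in cerulein. Its spread was wide in both groups, without overlap, and the log2 change was -1.49 ± 0.33 (SE, edgeR adjusted p = 0.00232). Cyp3a13, of the family that oxidises many drugs and steroids (chr5:137892933-137925610), was also lower, at -1.56 ± 0.35 (SE, edgeR adjusted p = 0.00207), with 5.18 to 9.26 CPM in saline and 1.66 to 3.03 CPM in cerulein. With library size alone as scaling, neither Cyp2e1 nor Cyp3a13 was called (-0.95 and -0.99).

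Cyp2c70, which in mouse liver makes muricholic acids, the rodent bile acids (chr19:40153361-40187286), had 2.57, 2.93 and 2.31 CPM in saline and 0 counts in each cerulein library. It was at least 21.7-fold lower, against a floor of 3 counts over the cerulein group (edgeR adjusted p = 5.49e-05), and at least 14.2-fold lower whichever single library was left out.

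Cyp1b1, a target of the aryl hydrocarbon receptor that oxidises oestrogens and polycyclic hydrocarbons (chr17:79706940-79715061), had groups that overlapped. It was at 48.8, 13.1 and 21.6 CPM in saline and 35.0, 25.6 and 40.3 CPM in cerulein. Saline replicate 1 was the highest of all 6 libraries, while saline replicates 2 and 3 were the lowest. The log2 change was 0.24 ± 0.46 (SE, edgeR adjusted p = 0.695), and without saline replicate 1 it was 0.94 and called. Saline replicate 1 also held 180 CPM of 8 summed neutrophil markers, where saline replicates 2 and 3 held 18.0 and 37.3 CPM. The cerulein libraries held 47.8 to 105 CPM of them. Sums of macrophage markers (225, 112 and 157 CPM) and lymphocyte markers (81.5, 8.56 and 55.5 CPM) ran in the same saline order. In cerulein none of these sums ran in the order of Cyp1b1, and the part of these cells in its value was not tested. Cyp2s1 lay between 1.29 and 2.02 CPM in all libraries and did not pass the threshold (0.29 ± 0.41). Cyp2b13 was at 1.22 to 2.48 CPM in saline and 0.234 to 1.64 CPM in cerulein, too low to be tested.

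**Figure D2:**
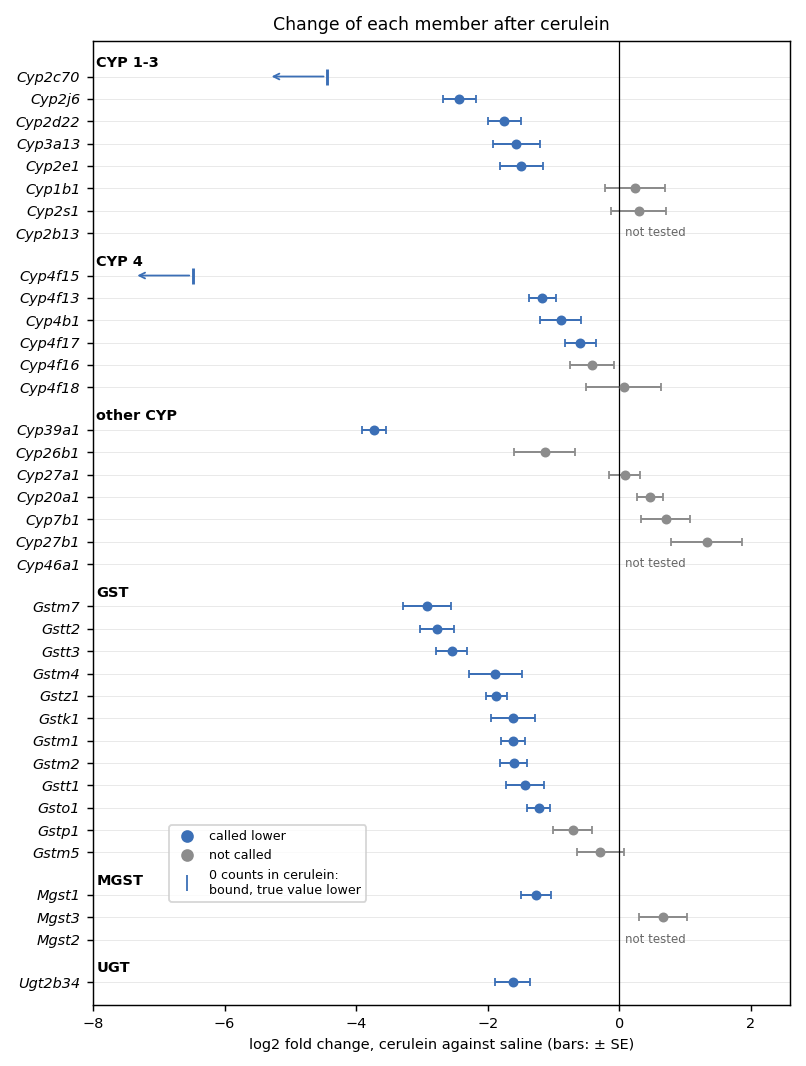
Log2 fold change of each member, cerulein against saline, with bars for ± SE, blue for a call of lower and grey for no call. The blue points run from Cyp39a1 at -3.73 to Cyp4f17 at -0.59, and arrows mark Cyp2c70 and Cyp4f15, whose 0 counts in cerulein give a bound.

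P450 family 4 enzymes hydroxylate the ends of fatty acids and of lipid mediators such as leukotriene B4, and Cyp4f15 is one of them. Of 6 members, all tested, 4 fell and 2 did not pass the threshold (median log2 fold change -0.74). Cyp4f15 (chr17:32685631-32703352) had 14.5, 9.01 and 5.66 CPM in saline, from 107, 40 and 22 counts, and 0 counts in each of the 3 cerulein libraries. It was at least 89.3-fold lower, against a floor of 3 counts over the cerulein group (edgeR adjusted p = 5.38e-06). With any single library left out the bound was 58.7-fold to 103-fold, the highest without saline replicate 3. The 3 saline libraries themselves spread widely, and all lay far above the level that a count of 0 allows.

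Cyp4f15 stands in a row of Cyp4f genes on chromosome 17, and none of the 3 neighbours that were members was at 0 in a cerulein library. Cyp4f13, the most abundant by counts (chr17:32924688-32947415), was at 26.6, 16.4 and 22.4 CPM in saline and 9.35, 10.2 and 9.72 CPM in cerulein, a log2 change of -1.17 ± 0.21 (SE, edgeR adjusted p = 0.000341). The cerulein libraries agreed closely and lay below all saline libraries. It was not called with library size alone (-0.63). Cyp4f17 (chr17:32506192-32530158) was at 13.1, 15.8 and 15.2 CPM in saline and 13.0, 7.96 and 8.08 CPM in cerulein. Cerulein replicate 1 nearly met the lowest saline library, and the call at -0.59 ± 0.24 (SE, edgeR adjusted p = 0.0464) was lost without saline replicate 2, saline replicate 3, cerulein replicate 2 or cerulein replicate 3, without the count filter, with a filter of CPM above 1 in 3 libraries, with DESeq2 and with library size alone (0.001). Cyp4f16 (chr17:32536545-32551798) had 3.60 to 6.10 CPM in saline and 3.04 to 3.79 CPM in cerulein, overlapping groups, with a log2 change of -0.42 ± 0.33 (SE, edgeR adjusted p = 0.31). Of its 50-base stretches 26.5% also occur in another gene, so its reads may be split with relatives.

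The starts of Cyp4f15, with 0 counts in cerulein, and of its neighbour Cyp4f16, which was not called, are shown to set side by side the DNA at 2 genes of 1 cluster. Each run spans 250 bases before to 50 bases after a RefSeq start (GRCm38.p6), at chr17:32685409-32685708 and chr17:32536307-32536606, both on the plus strand, and capitals mark the core of the xenobiotic response element (GCGTG, or CACGC on the other strand), the site of the aryl hydrocarbon receptor.
Cyp4f15: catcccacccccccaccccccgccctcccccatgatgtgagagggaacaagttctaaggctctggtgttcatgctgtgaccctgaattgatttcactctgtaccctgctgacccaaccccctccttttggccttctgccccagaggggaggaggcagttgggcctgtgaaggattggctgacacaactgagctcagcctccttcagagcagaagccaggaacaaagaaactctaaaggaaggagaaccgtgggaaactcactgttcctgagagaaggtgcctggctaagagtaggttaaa
Cyp4f16: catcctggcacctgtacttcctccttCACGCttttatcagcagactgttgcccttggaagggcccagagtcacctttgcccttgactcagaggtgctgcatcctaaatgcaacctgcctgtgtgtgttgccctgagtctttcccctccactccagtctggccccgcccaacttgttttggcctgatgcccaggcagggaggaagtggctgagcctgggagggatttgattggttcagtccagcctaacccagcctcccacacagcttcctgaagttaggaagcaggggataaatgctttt
Cyp4f16 held 1 such match and Cyp4f15 none, and each run held 2 CpG pairs.

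Cyp4b1, which hydroxylates medium-length fatty acids (chr4:115624698-115647721), was at 5.69, 5.18 and 5.40 CPM in saline and 3.55, 3.04 and 2.15 CPM in cerulein. The groups did not overlap, and the log2 change of -0.89 ± 0.32 (SE, edgeR adjusted p = 0.0289) was not called with library size alone (-0.34), without the count filter, with DESeq2, or without saline replicate 1, saline replicate 3, cerulein replicate 2 or cerulein replicate 3. Cyp4f18, the leukotriene-hydroxylating P450 of myeloid cells, was at 4.88, 0.451 and 2.31 CPM in saline and 2.72, 3.86 and 2.02 CPM in cerulein (0.07 ± 0.57). Its saline values ran in the same order as the neutrophil marker sums of 180, 18.0 and 37.3 CPM in those libraries. Macrophage sums (225, 112 and 157 CPM) and lymphocyte sums (81.5, 8.56 and 55.5 CPM) ran in that saline order too. In cerulein replicates 1, 2 and 3, macrophage sums (334, 345 and 304 CPM) again ran in the order of Cyp4f18. Neutrophil sums (47.8, 82.1 and 105 CPM) and lymphocyte sums (88.3, 48.8 and 51.0 CPM) ran in other orders there. The part of these cells was not tested.

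The other Cyp families act on sterols, vitamins and retinoids. Of 6 tested, 1 fell and 5 did not pass the threshold, and the median log2 fold change was 0.27. The exception was Cyp39a1, an oxysterol hydroxylase of bile acid synthesis (chr17:43667372-43751431). It was at 82.6, 94.2 and 99.3 CPM in saline and 5.92, 6.55 and 8.33 CPM in cerulein. The groups lay far apart, and each was tight within itself. The mean went from 92.0 ± 8.52 to 6.94 ± 1.25 CPM (mean ± SD, n = 3 per group), with a log2 change of -3.73 ± 0.18 or 13.2-fold (SE, edgeR adjusted p = 1.22e-08).

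The other tested members of these families did not pass the threshold, in either direction. Cyp27a1, the mitochondrial sterol hydroxylase of the acidic bile acid pathway, was at 7.72, 8.11 and 9.77 CPM in saline and 8.29, 10.7 and 7.96 CPM in cerulein, overlapping groups with a log2 change of 0.08 ± 0.24 (SE) that was negative with upper-quartile factors (-0.12). Cyp7b1, which hydroxylates oxysterols, was at 1.80 to 2.93 CPM in saline and 2.84 to 4.55 CPM in cerulein (0.71 ± 0.37). Cyp20a1, a P450 without an established substrate, was at 12.2, 13.7 and 11.8 CPM in saline and 15.3, 16.2 and 20.7 CPM in cerulein. All 3 cerulein libraries were above all 3 saline libraries, and the log2 change was 0.47 ± 0.19 (SE, edgeR adjusted p = 0.057), called higher with library size alone (1.04), without the count filter (0.54) and without cerulein replicate 1 (0.56).

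Cyp27b1, which makes the hormonal form of vitamin D, was at 1.35, 0.451 and 0.257 CPM in saline and 2.13, 1.99 and 1.89 CPM in cerulein. Its groups did not overlap, with a log2 change of 1.33 ± 0.54 (SE, edgeR adjusted p = 0.0521), and it was called with library size alone (1.84), with DESeq2 size factors in edgeR, with limma-voom and without saline replicate 1 (2.39). Cyp26b1, which breaks down retinoic acid, was at 2.84, 5.63 and 5.40 CPM in saline and 3.43, 1.52 and 1.14 CPM in cerulein (-1.14 ± 0.46, SE, edgeR adjusted p = 0.0507). It was called lower in 6 of 14 alternatives, which were upper-quartile factors (-1.32), DESeq2 size factors in edgeR, no count filter, limma-voom, and the fits without saline replicate 1 (-1.46) or cerulein replicate 1 (-1.73). Cyp46a1, the cholesterol hydroxylase best known from neurons, had 1.58 to 4.61 CPM in saline and 0 to 0.592 CPM in cerulein and was too low to be tested.

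Most glutathione S-transferases of the pancreas fell. Of 12 cytosolic and kappa Gst members, all tested, 10 fell and 2 did not pass the threshold, with a median of -1.62 (log2). Upper-quartile factors called 11 of them lower and library size alone 10. The called members ran from Gstm7, at -2.92, to Gsto1, at -1.23.

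The mu class (Gstm) conjugates a broad range of electrophiles and lies in 1 cluster (chr3:107895854-108045179). Gstm1 was at 77.9, 73.7 and 102 CPM in saline and 23.7, 34.2 and 24.8 CPM in cerulein. Each saline library held over 2 times the highest cerulein library, and the log2 change was -1.61 ± 0.19 (SE, edgeR adjusted p = 9.92e-06). Gstm2 went from 49.0 ± 6.56 to 16.02 ± 4.32 CPM (mean ± SD, n = 3 per group), with a log2 change of -1.60 ± 0.21 (SE). Gstm7 had 15.4, 14.4 and 27.5 CPM in saline and 1.30, 3.63 and 2.53 CPM in cerulein, a log2 change of -2.92 ± 0.36 (SE, edgeR adjusted p = 2.99e-05), and Gstm4 was at 3.38 to 3.79 CPM in saline and 0.758 to 1.18 CPM in cerulein (-1.89 ± 0.40). These 4 neighbours had groups that did not overlap. Gstm5, at the end of the cluster, was at 3.66, 5.41 and 5.91 CPM in saline and 2.49, 5.62 and 3.92 CPM in cerulein. Its groups overlapped and its log2 change was -0.29 ± 0.36 (SE, edgeR adjusted p = 0.527), turning to 0.28 with library size alone. Of the exon bases of Gstm5 13.9% overlap an antisense gene, and the sources used here do not say whether counting used strand. Of the 50-base stretches of Gstm1 23.2% also occur in another gene.

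**Figure D3:**
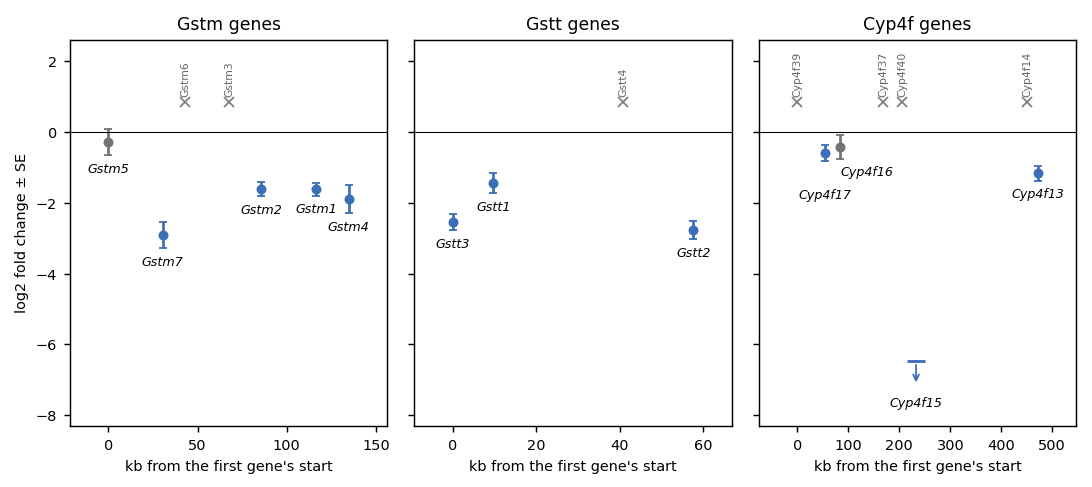
Log2 fold change ± SE of the Gstm, Gstt and Cyp4f genes against their distance in kb from the first gene's start, with blue for a call of lower, grey for no call, crosses for genes below 30 counts and an arrow for the bound of Cyp4f15. Gstm7 at 30.5 kb was lower by 2.92 while Gstm5 at 0 kb was not called, and Cyp4f15 lay between Cyp4f16 and Cyp4f13, whose changes were -0.42 and -1.17.

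The starts of Gstm7 and Gstm5, the most and the least changed genes of the mu cluster, were compared in the same way. They lie at chr3:107931565-107931864 on the minus strand (1 of 2 RefSeq starts of Gstm7) and chr3:107895604-107895903 on the plus strand, and capitals mark the core of the antioxidant response element (TGACNNNGC), the site of the NRF2 factor, and the xenobiotic core GCGTG or its complement CACGC.
Gstm7: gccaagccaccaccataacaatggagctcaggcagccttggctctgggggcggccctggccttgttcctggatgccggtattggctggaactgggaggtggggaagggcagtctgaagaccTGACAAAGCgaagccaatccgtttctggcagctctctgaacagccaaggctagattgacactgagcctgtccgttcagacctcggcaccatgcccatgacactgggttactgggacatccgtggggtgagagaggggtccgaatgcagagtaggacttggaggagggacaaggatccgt
Gstm5: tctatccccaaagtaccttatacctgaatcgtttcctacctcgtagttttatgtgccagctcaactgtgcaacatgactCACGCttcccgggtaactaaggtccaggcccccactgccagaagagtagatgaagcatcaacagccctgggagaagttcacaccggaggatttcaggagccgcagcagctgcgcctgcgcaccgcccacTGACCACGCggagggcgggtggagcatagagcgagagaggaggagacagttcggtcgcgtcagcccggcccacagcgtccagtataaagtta
Both held 1 antioxidant core, TGACAAAGC in Gstm7 and TGACCACGC in Gstm5, the latter ending in a xenobiotic core. The other RefSeq start of Gstm7 (chr3:107931768-107932067) held no antioxidant or xenobiotic core and 6 CpG pairs. The printed runs held 18 CpG pairs in Gstm5 and 9 in Gstm7. Over both strands, TGACNNNGC occurred in promoters of 14.0% of 27025 genes, of 3 of 18 members called lower (16.7%) and of 2 of 11 members tested and not called (18.2%). GCGTG occurred for 35.2% of all genes, for 1 of 18 members called lower (5.6%) and for 6 of 11 not called (54.5%). The median number of CpG pairs was 8 over all genes, 5.5 for members called lower and 16 for those not called. A match is a description of the letters, and 32 of the 37 members had a promoter in the table.

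The theta class (Gstt) acts on small halogenated molecules and also lies in 1 cluster (chr10:75774117-75837419). Gstt2 was at 21.9, 34.5 and 37.0 CPM in saline and 3.20, 5.27 and 5.05 CPM in cerulein, a log2 change of -2.77 ± 0.26 (SE, edgeR adjusted p = 1.52e-06). Gstt3 was at 29.4, 39.6 and 41.7 CPM in saline and 4.62, 8.19 and 5.94 CPM in cerulein, a log2 change of -2.55 ± 0.23 (SE, edgeR adjusted p = 1.25e-06). Saline replicate 1 was the lowest saline library for both genes and still lay above every cerulein library. Gstt1 was also lower, at 9.46 to 19.0 CPM in saline and 4.42 to 6.67 CPM in cerulein, a log2 change of -1.44 ± 0.29 (SE, edgeR adjusted p = 0.000828). Gstt3 shares 26.0% of its 50-base stretches with the gene model Gm20441, which overlaps it.

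The zeta, omega, kappa and pi classes each had 1 member. Gstz1, the zeta enzyme that isomerises maleylacetoacetate in tyrosine breakdown (chr12:87147161-87164723), was at 48.2, 53.4 and 52.5 CPM in saline and 12.3, 13.7 and 16.2 CPM in cerulein. Both groups were tight, and the log2 change was -1.87 ± 0.17 (SE, edgeR adjusted p = 1.02e-06). Of the exon bases of Gstz1 12.2% overlap antisense genes, as for Gstm5. Gsto1, the omega enzyme that also reduces dehydroascorbate (chr19:47854973-47864790), was at 32.5, 39.0 and 41.4 CPM in saline and 14.0, 17.2 and 16.8 CPM in cerulein, a log2 change of -1.23 ± 0.17 (SE, edgeR adjusted p = 5.36e-05). Gstk1, the kappa enzyme of mitochondria and peroxisomes (chr6:42245935-42250441), had 6.37, 14.2 and 14.4 CPM in saline and 4.38, 3.28 and 3.41 CPM in cerulein (-1.62 ± 0.33, SE, edgeR adjusted p = 0.00104). Saline replicate 1 was again the lowest saline library and remained above cerulein. Gstp1, the pi enzyme (chr19:4035411-4037912), was at 11.0, 19.6 and 23.1 CPM in saline and 7.34, 12.8 and 12.1 CPM in cerulein. Its groups overlapped through saline replicate 1, and the log2 change of -0.71 ± 0.29 (SE, edgeR adjusted p = 0.0577) became -1.03 and called without that library. It was also called with upper-quartile factors (-0.91) and without the count filter. As 62.3% of its 50-base stretches also occur in another gene, Gstp2 or Gstp-ps, its count is uncertain.

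Mgst enzymes are membrane proteins of a separate fold that detoxify lipid peroxides or make leukotriene C4. Mgst1 (chr6:138140527-138156755) was at 22.2, 13.3 and 21.6 CPM in saline and 7.57, 7.14 and 9.09 CPM in cerulein. The cerulein libraries were tight and below all saline libraries, with a log2 change of -1.27 ± 0.23 (SE, edgeR adjusted p = 0.000436) that was not called with library size alone (-0.72). Mgst3 was at 2.03, 3.60 and 3.34 CPM in saline and 4.97, 5.50 and 3.28 CPM in cerulein, overlapping groups that did not pass the threshold (0.66 ± 0.36). Mgst2 was too low to be tested, and saline replicate 1 held 3.66 CPM against 0.451 to 1.89 CPM in the other libraries.

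Ugt2b34 was the only Ugt member (chr5:86889770-86906937), and its family glucuronidates steroids and phenols. It was at 48.2, 64.4 and 51.7 CPM in saline and 10.4, 18.6 and 24.4 CPM in cerulein. The groups did not overlap, although the cerulein libraries differed from each other, and the mean went from 54.8 ± 8.54 to 17.8 ± 7.01 CPM (mean ± SD, n = 3 per group), with a log2 change of -1.62 ± 0.27 (SE, edgeR adjusted p = 0.000375). The next Ugt2b row, Ugt2b35, was just outside the threshold at 27 counts. All 8 Ugt1a rows were at 0 in every library, and these genes share their last exons. Of 13 Cyp, Gst and Ugt rows whose span lies inside another gene, 12 were at 0, against 54 of 125 rows that do not, so a 0 there is treated as no measurement. No member lay inside another gene.

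Values at the count threshold show how the selection worked. Just outside lay Cyp2t4 with 29 counts and Ugt2b35 with 27, and just inside lay Cyp2c70 with 41 and Cyp2b13 with 43. Of the members, 6 reached 30 counts in 1 group only (Gstm4, Cyp2s1, Cyp27b1, Cyp46a1, Cyp4f15 and Cyp2c70). Cyp1a1, the classic target of the aryl hydrocarbon receptor, was below it with 5, 12 and 5 counts in saline and 2, 1 and 1 in cerulein.

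The split between higher and lower depended on scaling for some members. Relative to TMM, upper-quartile factors moved the median of all genes by -0.20 (log2) and library size alone by 0.56. All-gene calls were 2895 higher against 4190 lower under the former and 5181 against 1449 under the latter. The members' median was -1.55 and -0.81 (log2) under these scalings. Upper-quartile factors called 24 members lower and 0 higher. Library size alone called 16 lower (47.1%, against 11.6% of all genes) and 4 higher, which were Cyp20a1, Mgst3, Cyp7b1 and Cyp27b1. Of the 22 members called lower, 16 were called lower in each of the 14 alternatives run that tested them, and the exceptions were Cyp4b1, Cyp4f17, Cyp3a13, Mgst1, Cyp2e1 and Cyp4f13.

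**Figure D4:**
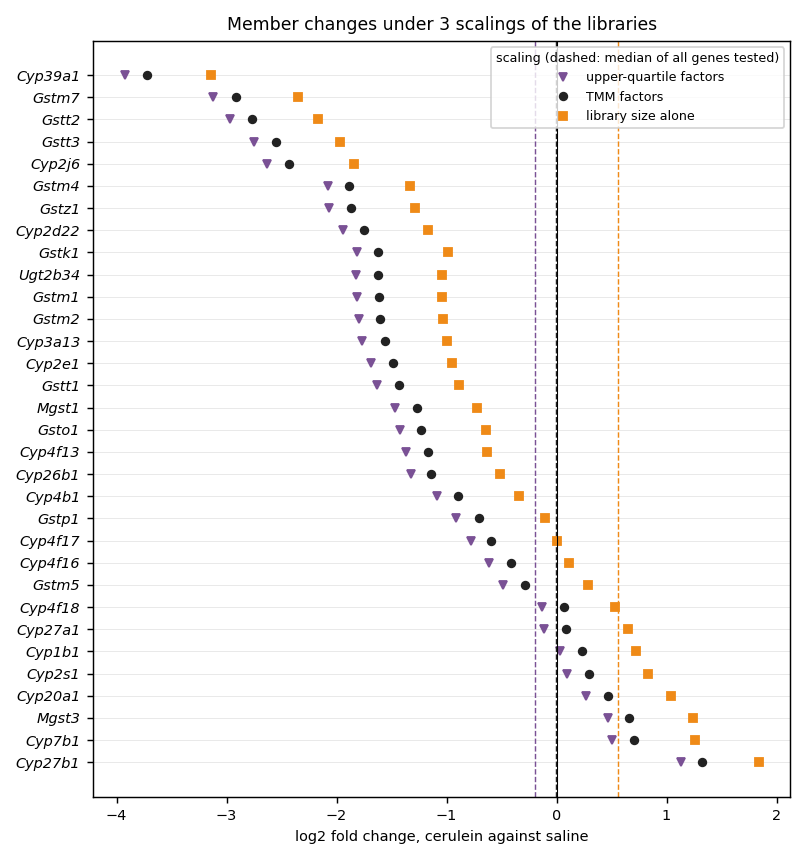
Log2 fold change of the 32 tested members with counts in cerulein under 3 scalings of the libraries, with dashed lines at the median of all genes under each. Every member shifts right with library size alone, where Cyp39a1 is at -3.14 and Gstm7 at -2.35, while Cyp4f17 reaches 0.001 and Gstm5 0.28.

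Markers of other tissues and cell types were read beside these changes, since liver is rich in the same enzymes. The summed hepatocyte markers were at 23.6, 25.5 and 42.4 CPM in saline and 4.80 to 5.50 CPM in cerulein. Most of that sum was Ttr, which islets also express (17.6, 21.6 and 37.5 CPM in saline). Apoa2 was at 2.71, 1.13 and 2.83 CPM in saline and 0.118 to 0.253 CPM in cerulein, without overlap. Ahsg was at 2.03, 1.13 and 0.257 CPM in saline and 0.117 to 0.253 CPM in cerulein. The Ahsg groups all but met, between saline replicate 3 and cerulein replicate 3. In those libraries 1 CPM corresponded to 3.89 and 7.92 counts, so these values rest on very few reads. Neither Apoa2 nor Ahsg was tested. Alb was at 0.225 to 1.29 CPM with overlapping groups. Fgb leaned the other way, at 0 CPM in saline and 0 to 0.379 CPM in cerulein. Fgg, Tat, Serpina1c and Hpx were at or below 1.35 CPM in every library, with overlapping groups. Apoa1 and Apob were listed at 0 in all libraries, as were the islet gene Iapp and the widely expressed G6pdx, so a listed 0 is not read as absence. Of 7 small intestine markers, 4 (Fabp2, Alpi, Sis and Apoa4) were at 0 in all libraries. Of the 2 tested, Vil1 rose (log2 change 1.55 ± 0.60, SE, edgeR adjusted p = 0.0434), with overlapping groups, and Slc5a1 did not pass the threshold. Markers of 8 adipocyte genes summed to 361 to 433 CPM in saline and 122 to 166 CPM in cerulein, where Fabp4 and Lpl fell, Lep rose and Adipoq did not pass the threshold (2 lower and 1 higher of 6 tested). Most of the saline sum was Lpl (261 to 331 CPM in saline and 56.8 to 85.2 CPM in cerulein). Of 10 acinar markers, 9 fell and 1 rose, and their sum was 141000, 305900 and 293200 CPM in saline and 93240 to 109100 CPM in cerulein. Duct markers summed to 415 to 514 CPM in saline and 999 to 1226 CPM in cerulein (5 higher and 2 lower of 7 tested). Krt19 was at 17.5 to 29.8 CPM in saline and made up most of the cerulein sum (612 to 793 CPM). Macrophage markers summed to 112 to 225 and 304 to 345 CPM (3 higher of 8). Cd14 alone was at 14.6 to 32.1 and 122 to 170 CPM, and Adgre1, Csf1r, C1qa, C1qb and Mrc1 did not pass the threshold. Endothelial markers summed to 161 to 185 and 164 to 196 CPM (2 higher and 2 lower of 8). Stellate and fibroblast markers summed to 422 to 477 and 385 to 507 CPM (2 higher and 1 lower of 8). Islet markers summed to 822 to 1928 and 1013 to 1681 CPM (0 higher and 3 lower of 7 tested). Lymphocyte markers summed to 8.56 to 81.5 and 48.8 to 88.3 CPM (0 higher and 0 lower of 6 tested). All these marker counts stand beside the shares of all genes, 28.7% higher and 27.1% lower. The part of these markers in the members' changes was not tested.

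The genes that serve these enzymes did not move as one group with them. Of 19 genes for P450 electron partners and haem, 4 rose (21.1%), 10 fell (52.6%) and 5 did not pass the threshold (median log2 fold change -0.79). The shares of all genes were 28.7% higher and 27.1% lower. Cyb5a, the cytochrome b5 of the endoplasmic reticulum, was at 45.0, 49.8 and 54.8 CPM in saline and 11.5, 9.36 and 10.6 CPM in cerulein (-2.24 ± 0.17, SE, edgeR adjusted p = 2.65e-07). Cyb5b, its form on the mitochondrial outer membrane, fell by 1.20 ± 0.16 and Fech, the last enzyme of haem synthesis, by 1.97 ± 0.19 on the log2 scale (SE). Fdx1, the ferredoxin that passes electrons to mitochondrial P450s, went the other way, from 32.9, 59.7 and 48.6 CPM in saline to 245, 313 and 289 CPM in cerulein (2.59 ± 0.22, SE, edgeR adjusted p = 7.34e-07). Por, the P450 reductase that serves all P450s of the endoplasmic reticulum, and Hmox1, which breaks haem down, were picked after their values were seen. Por was at 78.8, 150 and 60.4 CPM in saline and 179, 206 and 205 CPM in cerulein (1.03 ± 0.29), and Hmox1 at 7.66 to 36.7 and 152 to 156 CPM (2.87 ± 0.49). With library size alone the haem and partner list had 6 higher and 5 lower.

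Genes of the glutathione supply list mostly rose while most of the transferases that use glutathione fell. The list also holds genes that do not make glutathione, among them Chac1, Txnrd1 and Ggt1. Of 11 tested of 12, 8 rose, 1 fell and 2 did not pass the threshold (median log2 fold change 1.29), and 8 rose with each scaling. The gene that fell was Ggt1 (log2 change -1.14 ± 0.17, SE), named after its values were seen. The shares were 72.7% higher and 9.09% lower, against 28.7% and 27.1% of all genes, for a list chosen with earlier results known. Gclc, the catalytic subunit of the first and rate-setting step of glutathione synthesis, was at 48.2, 34.2 and 39.6 CPM in saline and 938, 939 and 1386 CPM in cerulein. The lowest cerulein library was far above every saline library, and the log2 change was 4.74 ± 0.25 (SE, edgeR adjusted p = 1.55e-08). Gss, the enzyme of the step after it, went from 3.10 ± 1.18 to 16.2 ± 2.83 CPM (SD, n = 3 each), or 2.38 ± 0.29 on the log2 scale (SE). Txnrd1, the cytosolic thioredoxin reductase, rose by 2.90 ± 0.19 and Chac1, which breaks glutathione down, by 4.07 ± 0.41 on the log2 scale (SE). G6pdx of this list was listed at 0 in all libraries and is not read as absent.

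Genes of UDP-glucuronic acid supply were split, with 3 higher and 4 lower of 8 (median -0.37, and 0.21 with library size alone). These shares were 37.5% and 50%, against 28.7% and 27.1% of all genes, in a list of only 8. Ugdh, which makes the UDP-glucuronic acid that Ugt enzymes use, was at 14.6, 10.6 and 13.1 CPM in saline and 37.5, 40.4 and 55.1 CPM in cerulein (1.78 ± 0.20, SE, edgeR adjusted p = 8.84e-06), opposite to Ugt2b34. Slc35d1, which carries UDP-sugars into the endoplasmic reticulum where Ugt enzymes work, fell by 1.64 ± 0.25 on the log2 scale (SE). Gys1, the glycogen synthase that draws on UDP-glucose, rose by 1.87 ± 0.16, and Pgm2, a phosphoglucomutase, fell by 1.96 ± 0.27 (log2, SE).

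Other phase I and II enzymes were lower more often than higher, with 6 higher and 18 lower of 30 tested of 40 (median -1.17). The shares were 20% higher and 60% lower, against 28.7% and 27.1% of all genes. Fmo2, a flavin monooxygenase, was at 49.4, 55.2 and 55.5 CPM in saline and 10.7, 10.4 and 8.33 CPM in cerulein (-2.44 ± 0.17, SE, edgeR adjusted p = 1.35e-07). Inmt, an amine methyltransferase, fell by 3.64 ± 0.40 and Aldh1a1, which makes retinoic acid from retinal, by 2.01 ± 0.20 on the log2 scale (SE). Akr1b8, an aldo-keto reductase, rose from 2.84, 1.13 and 1.29 CPM to 45.5, 65.1 and 59.4 CPM (4.87 ± 0.29, SE, edgeR adjusted p = 3.58e-08). Of 18 transporter genes tested of 23, 6 rose (33.3%) and 5 fell (27.8%), near the shares of all genes (28.7% and 27.1%), and the balance turned with scaling. Upper-quartile factors gave 4 higher and 7 lower, whereas library size alone gave 6 higher and 2 lower. Abcc1, an exporter of glutathione conjugates, was higher by 0.93 ± 0.19, while Abcc10 and Abcc6, of the same family, were lower (-1.95 ± 0.24 and -2.99 ± 0.68, log2, SE). Slco3a1, an organic anion transporter, rose by 1.18 ± 0.22 on the log2 scale (SE).

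**Figure D5:**
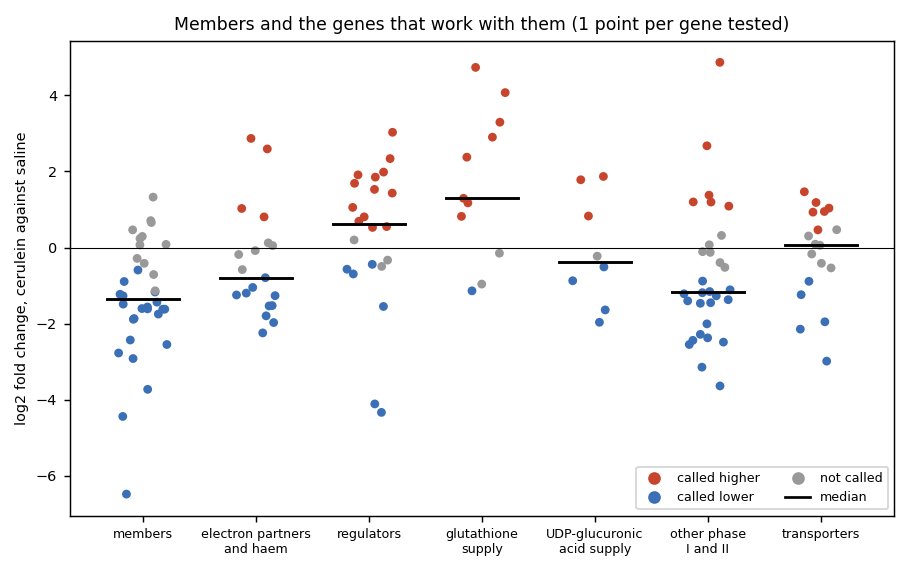
Log2 fold change of every tested gene, 1 point per gene, among the 34 members and 6 lists of genes that serve or regulate them, with red for a call of higher, blue for lower, grey for no call and a bar at the median. The members' median is -1.35 with no red point, whereas the glutathione supply median is 1.29 with 8 red points. Cyp2c70 and Cyp4f15 are drawn at their bounds.

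Regulators of these genes moved in both directions, with 13 higher, 6 lower and 3 not passing the threshold of 22 tested of 26 (median 0.62). The share called lower, 27.3%, was near that of all genes (27.1%), and the share called higher was 59.1% against 28.7%. Upper-quartile factors gave 10 higher and 8 lower, and library size alone 14 and 3. Nr1h4, the bile acid receptor FXR, was at 26.0, 30.9 and 29.3 CPM in saline and 1.54, 1.40 and 1.26 CPM in cerulein (-4.33 ± 0.23, SE, edgeR adjusted p = 1.51e-08). Ppara, the fatty acid receptor that controls Cyp4 genes in liver, was at 11.5, 12.4 and 14.7 CPM in saline and 0.473, 0.936 and 0.758 CPM in cerulein (-4.11 ± 0.33, SE, edgeR adjusted p = 4.59e-07). Both receptors had cerulein libraries far below all saline libraries. Nfe2l2, which encodes NRF2, the factor that binds antioxidant response elements of Gst and glutathione genes, was at 39.7, 35.4 and 35.0 CPM in saline and 97.6, 106 and 152 CPM in cerulein (1.69 ± 0.19, SE, edgeR adjusted p = 6.81e-06). Keap1, its inhibitor, rose by 1.06 ± 0.17 and Maff, a small partner of NRF2, by 3.03 ± 0.18 on the log2 scale (SE), and Cebpa, a liver and adipose factor, rose by 2.34 ± 0.18. Ahr, the aryl hydrocarbon receptor, was at 15.2, 9.24 and 9.51 CPM in saline and 21.4, 13.6 and 21.0 CPM in cerulein. Its groups overlapped, and the call at 0.69 ± 0.25 (SE, edgeR adjusted p = 0.0299) was lost with upper-quartile factors (0.49) and without saline replicate 2, saline replicate 3, cerulein replicate 1 or cerulein replicate 3. Its partner Arnt did not pass the threshold (-0.33 ± 0.16). The xenobiotic receptors Nr1i2 and Nr1i3 were at or below 0.677 CPM in every library and were not tested.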

How the data were processed

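Pancreas RNA from 3 saline and 3 cerulein samples was sequenced from TruSeq Stranded mRNA libraries, per the labels' protocols. Gene-level read counts, unnormalised, were deposited by the authors, made with Trimmomatic, STAR and HTSeq on mm10, per the submitters' processing notes. The sources used here do not give versions, annotation or the use of strand, so reads of overlapping, antisense or near-identical genes may be lost or split. Total counts ran from 5335117 to 7610775 per library, and 0 columns belonged to other samples. Replicates differed beyond sampling noise. Chi-square per degree of freedom was 45.1 and 37.7 for saline replicate 1 against the other saline libraries and 7.98 to 14.3 for the other pairs.

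The members and gene lists were chosen with earlier results of these data known. Symbols were matched to RefSeq genes of GRCm38.p6 (137 of 138 rows), and exon lengths and overlaps came from GENCODE. The test was that of edgeR 4.0.16 (R 4.3.3; filterByExpr with minimum count 10 and minimum total 15, TMM, robust quasi-likelihood F test, two-sided), with Benjamini-Hochberg adjustment over the 12441 genes tested and calls at 0.05. The standard error was derived from the F statistic. Where all 3 libraries held 0, the fold used a floor of 3 counts summed over them, which covers counting error only. The script was tested on simulated data. Alternatives were upper-quartile factors, library size alone, DESeq2 size factors in edgeR, no count filter, CPM above 1 in 3 libraries, DESeq2 1.42.0, limma-voom (limma 3.58.1), a replicate block and leaving out each library.

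Per-library values and full statistics went to Cyp4f15, to up to 6 called members in each direction with the largest changes in each role group, and to the 3 most abundant members of each. Other members could be named with their values. In each list up to 4 genes with the smallest p were named, with Ahr, Arnt, Nfe2l2, Keap1, Nr1i2 and Nr1i3 added among the regulators. Promoter runs were read from RefSeq promoters of GRCm38.p6 and searched on both strands.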

Additional observations from a re-analysis of the deposited data

How the results depend on the processing

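The number of members called lower (22) was 16 to 24 over the alternatives. The number called higher (0) was 4 with library size alone (3 Cyp and 1 Gst or Mgst), 1 with DESeq2 size factors in edgeR, 1 without the count filter and 1 with limma-voom, each a Cyp gene, and 0 to 2 with 1 library left out, all Cyp. The 2 were Cyp27b1 and Cyp1b1 without saline replicate 1. With library size alone, Cyp members called lower went from 10 to 5 and all genes called lower from 3373 to 1449. Relative to TMM, this scaling moved the median of all genes upward by 0.56 (log2). The TMM factors that it leaves out were 0.719 to 1.03 in saline and 1.13 to 1.3 in cerulein. Directions of small changes turned. Library size alone gave 0.28 for Gstm5, 0.001 for Cyp4f17, 0.12 for Cyp4f16 and 0.23 for Arnt. Upper-quartile factors gave -0.12 for Cyp27a1 and -0.13 for Cyp4f18. With 1 library left out, Cyp27a1 ran from -0.051 to 0.172, Cyp4f18 from -0.39 to 1.06 and Cyp1b1 from -0.093 to 0.935, and the cause was not tested. Of 868 values of named genes under alternatives, 812 kept direction and side of the threshold, 23 lost the call, 21 gained one and 12 changed sign. The labels share replicate numbers between groups. Same-numbered libraries correlated at 0.19, 0.22 and -0.15 in their deviations from the group means. Differently numbered libraries ran from -0.293 to 0.088. With 3 libraries per group, these values cannot decide whether the numbers pair the libraries. The fit with a replicate block called 23 members lower and 0 higher, adding Gstp1 (-0.71). Depth limits low members, since 3 of 37 (Cyp2b13, Cyp46a1 and Mgst2) were not tested.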
